A study of Mus musculus with 2 samples.

Results

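The genes described here encode caspases, the apoptosome scaffold and its inhibitor, and the caspase-activated DNase with its chaperone. They are Casp2, Casp6, Casp8, Casp9, Apaf1, Xiap, Dffa and Dffb, 8 genes of the 42462 whose identifiers matched the annotation. They were taken by symbol and Ensembl identifier, as genes of a pathway and not by a threshold on their levels, but with earlier results of these data known. All coordinates are GRCm38 (mm10), with gene and transcript models from GENCODE M21. RNA-seq of polyadenylated RNA, single-end, was available from G1E-ER4, an immortalized mouse erythroid line that grew from cells lacking Gata1. A GATA-1 protein joined to the hormone-binding part of an oestrogen receptor was put back into it. The labels call the line male and postnatal, and all cells had been in 10 nM 17beta-estradiol for 24 hours to switch this protein on. The 2 libraries, named biological replicates 1 and 2, are the whole of the single group, and the labels list the same biosample for both without saying whether they came from separate cultures. No library of uninduced cells was analysed here, so every value is a level in induced cells and none is a change.

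Caspases are proteases made as inactive precursors that cut proteins after aspartate. In the mitochondrial route cytochrome c released from mitochondria lets the Apaf1 protein assemble into the apoptosome, which activates caspase 9, and caspase 9 then cuts the executioner caspases. Caspase 8 starts the route from death receptors. Red cell precursors are known to use limited caspase activity while they mature and condense their nuclei, so the family has been studied in this lineage both as a cause of death and as a part of development.

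The libraries held 20412826 and 18564086 expected counts in replicates 1 and 2. An expected count is the quantifier's estimate of the reads of a gene, with reads that fit several places shared among them. Levels are given in TPM, in which each gene's estimated reads are divided by its length and scaled to a fixed library total, so that genes can be compared. The labelled cell type matched its markers, since all 8 erythroid genes were above 1 TPM, with means from 94.6 TPM for Epor to 65450 TPM for Hbb-bs. Of 9 myeloid and lymphoid markers only Cd68 passed 1 TPM in each library, and of 6 fibroblast and endothelial markers only Fn1. The summed levels of these lists were 3.40 to 4.69 TPM, and Ptprc, Lyz2, Cd3e, Col1a2, Pdgfrb and Cdh5 had 0 counts. In bulk RNA, fewer cells of a type and less RNA per cell cannot be told apart. A count of 0 allows up to 3 counts, which is 0.147 CPM (counts scaled by the library total) in replicate 1 and 0.162 CPM in replicate 2, for counting error only.

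Detection was set at 1 TPM, to be reached in each library. By this rule 7 of the 8 genes were detected, against 41.2% of 21461 nuclear protein-coding genes. Casp8 was the exception. The median of the 8 mean levels was 13.7 TPM, against 0.0800 TPM over all nuclear protein-coding genes. Casp2 and Apaf1 had the highest levels, at percentiles of 61.8 and 61.0 among the detected genes. Dffb was the lowest of those detected, at the percentile of 28.8. The other 4 detected genes lay between these, from Xiap at 32.0 to Casp6 at 50.7, so none stood near either end of the detected genes.

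**Figure D1:**
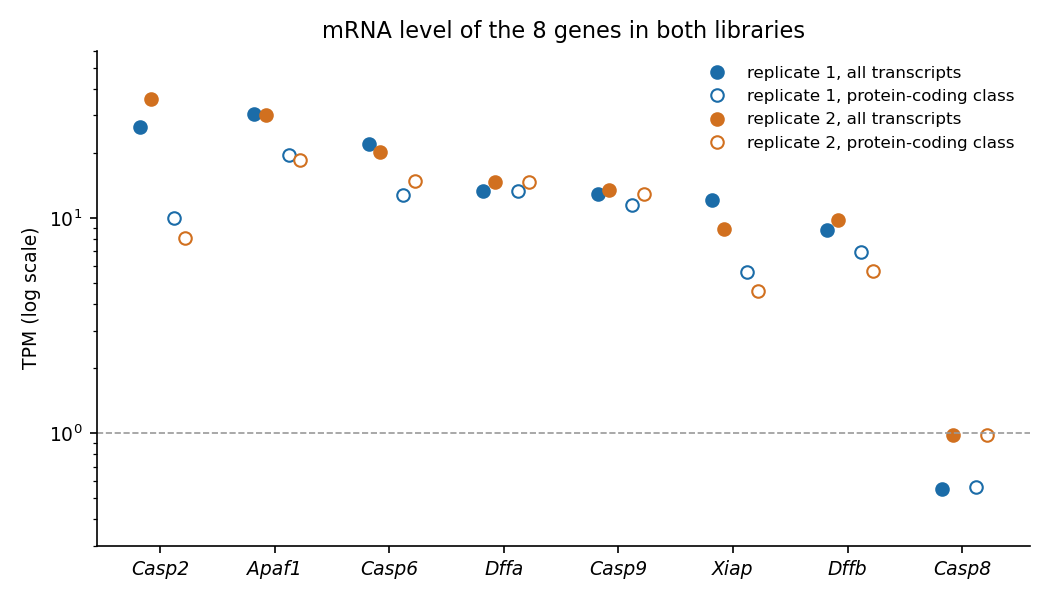
TPM of each gene on a log scale, by library; filled points sum all transcripts of a gene, open points sum only transcripts of the protein-coding class, and the dashed line marks 1 TPM. Casp8 lies below the line in both libraries, and Casp2 and Xiap drop most between filled and open points, to 9.06 and 5.105 TPM on average.

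Casp2 (ENSMUSG00000029863) lies on the forward strand of chromosome 6, chr6:42264985-42282508 in GRCm38. It encodes caspase 2, an initiator that responds to DNA damage and to failed division and is activated on a platform of its own. Casp2 stood at 26.65 TPM in replicate 1 and 35.8 TPM in replicate 2. Its mean of 31.2 ± 6.50 TPM (SD, n = 2) was the highest of the 8 genes and also had the widest spread. In CPM the libraries were closer, at 44.0 and 47.0, and the replicate 1 to replicate 2 ratio was 0.937 with an exact 95% Clopper-Pearson interval of 0.852 to 1.03. The same ratio in TPM was 0.744.

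The reads of Casp2 were divided among several transcripts. Casp2-209, which the annotation places in the class of nonsense-mediated decay, held 47.9% of the gene's TPM in replicate 1 and 51.0% in replicate 2. Casp2-201, which encodes the full protein of 452 residues, held 37.6% and 22.6%. As shares of expected counts, which give more weight to long transcripts, Casp2-201 held 62.5% and 47.5% and Casp2-209 held 32.0% and 43.0%. Casp2-209 carries an extra exon of 61 bases, its exon 9, at chr6:42276870-42276930. The bases around it show what this exon does to the reading frame, with the extra exon in capitals in the first line and the pair of bases that meet at the direct junction in capitals in the second. Both are spliced, 5′ to 3′ on the forward strand, within chr6:42276756-42279806:

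Casp2-209: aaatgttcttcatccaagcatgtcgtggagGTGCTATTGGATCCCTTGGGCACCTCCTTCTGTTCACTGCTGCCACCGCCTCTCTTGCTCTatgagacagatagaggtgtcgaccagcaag

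Casp2-201: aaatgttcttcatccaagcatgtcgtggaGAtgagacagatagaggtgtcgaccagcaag

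A length of 61 bases is no multiple of a codon, and the reading frame of Casp2-209 meets a TGA stop that ends 4 bases after the extra exon. Its open frame has 343 residues. Few positions mark Casp2-209, since only 96 of its 1404 windows of 36 bases, 36 bases being the read length, are absent from Casp2-201. None of its windows was absent from all other listed Casp2 transcripts. For Casp2-201, 1938 of 3494 windows were, so the division also rested on reads in those. Casp2-203, a transcript with a retained intron that also holds the extra exon, had 1.97 and 0 counts, so nearly all counts on transcripts with this exon were given to Casp2-209, at 288 and 375. Casp2-205, another transcript with a retained intron, held 5.97% and 17.4% of TPM. Transcripts of the protein-coding class amounted to 10.0 and 8.11 TPM, 9.06 ± 1.34 on average, and on this basis Casp2 was number 5 of the 8 genes in place of number 1. Where all transcripts with an annotated coding sequence were summed, Casp2-209 included, Casp2 had 24.6 ± 2.55 TPM and stayed number 1, ahead of Apaf1 at 19.1 TPM.

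**Figure D2:**
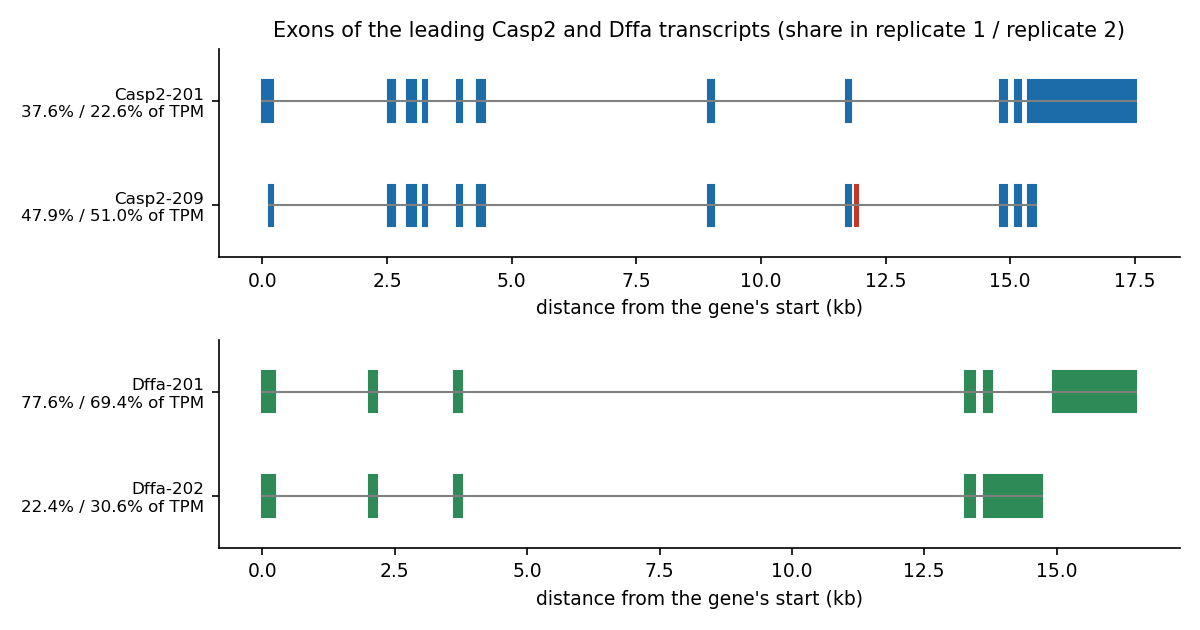
Exons of Casp2-201 and Casp2-209 (top) and of Dffa-201 and Dffa-202 (bottom), drawn to scale as distance from the gene's start in kilobases, with each transcript's percent of the gene's TPM in replicate 1 and replicate 2. The extra Casp2 exon of 61 bases is red, and Dffa-202 ends in a longer last exon where Dffa-201 goes on to a further one.

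Casp9 (ENSMUSG00000028914, chr4:141793612-141815976, forward strand) encodes the initiator caspase that the apoptosome activates. It stood at 12.95 TPM in replicate 1 and 13.55 TPM in replicate 2, or 13.25 ± 0.424 TPM (SD, n = 2). Both libraries gave nearly the same level. The coding transcript Casp9-201 held 86.3% and 95.5% of this TPM. Casp9-203, without annotated coding sequence, held 10.2% in replicate 1 on 17.3 counts and had 0 counts in replicate 2. Casp9-202, whose coding sequence is 147 bases shorter, had 0 counts in both libraries, but only 31 of its 1463 windows of 36 bases are absent from Casp9-201. Exons of Casp9 overlap those of Cela2a and Ctrc on the other strand by 94 bases each. Whether strand was used in counting is not stated, and the quantifier's posterior SD of the Casp9 count was 0.290 and 0.170 counts of 717 and 737.

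Casp8 (ENSMUSG00000026029, chr1:58795374-58847503, forward strand) encodes the initiator caspase of death receptors. It had 19.5 counts in replicate 1 and 32.0 in replicate 2, or 0.550 and 0.980 TPM. The mean of 0.765 ± 0.304 TPM (SD, n = 2) was the lowest of the 8 genes, well apart from Dffb, the next in order. These counts lie above the 3 that a count of 0 allows, so Casp8 RNA was measured but did not reach 1 TPM. The ratio of the libraries in CPM was 0.540 with an interval of 0.289 to 0.982. Casp8-201 and Casp8-202, which hold the same 1443 coding bases, received all reads, and the longer coding forms Casp8-203 and Casp8-204 had 0 counts. Only 31 of the 1593 windows of 36 bases in Casp8-203 were absent from all other listed Casp8 transcripts. For Casp8-204 this was 31 of 1814. On the log2 scale Casp8 lay below Casp9 by a ratio of -4.56 in replicate 1 and -3.79 in replicate 2, -4.17 ± 0.54 on average.

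Casp6 (ENSMUSG00000027997, chr3:129901425-129914103, forward strand) encodes an executioner caspase known for cutting nuclear lamins. It stood at 22.1 TPM in replicate 1 and 20.3 TPM in replicate 2, or 21.2 ± 1.27 TPM (SD, n = 2). Over all transcripts the level was the third highest and was clear of its neighbours in both directions. Casp6-201, the full coding transcript, held 58.2% and 73.2% of TPM. The remainder lay on Casp6-202, 477 bases long, for which no coding sequence is annotated. By counts Casp6-202 was smaller, with 18.3% and 10.2%. The level of Casp6-201 alone was 12.8 and 14.8 TPM, a range that overlapped those of Dffa and Casp9 over the protein-coding class.

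All 4 caspases share the active-site motif of the family, whose cysteine carries out the cut. The coding bases around it are given, spliced and 5′ to 3′ on the forward strand, to show what the genes have in common and where the extra Casp2 exon falls, with the codon of the catalytic cysteine in capitals. They lie within chr6:42276755-42279790, chr3:129910681-129912144, chr1:58844598-58844642 and chr4:141807232-141811552 in the order printed:

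Casp2-201: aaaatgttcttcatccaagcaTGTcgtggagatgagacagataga

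Casp6-201: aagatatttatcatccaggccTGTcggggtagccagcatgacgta

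Casp8-201: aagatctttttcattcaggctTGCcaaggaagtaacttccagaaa

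Casp9-201: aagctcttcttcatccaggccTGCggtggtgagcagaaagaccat

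The cysteine is residue 320 of 452 in Casp2-201, 146 of 276 in Casp6-201, 362 of 480 in Casp8-201 and 325 of 454 in Casp9-201. The motif occurred 1 time in each predicted protein. The extra exon of Casp2-209 enters the message 7 bases after this cysteine codon, so the codon is kept and the frame leaves that of Casp2-201 behind it.

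Apaf1 (ENSMUSG00000019979, chr10:90989311-91082770, reverse strand) encodes the scaffold of the apoptosome. It stood at 30.5 TPM in replicate 1 and 30.1 TPM in replicate 2, or 30.3 ± 0.276 TPM (SD, n = 2). The libraries gave almost the same level, and the range lay inside that of Casp2, so the order of these 2 genes was not resolved. Apaf1 exceeded Casp9 in both libraries, by 1.24 and 1.15 on the log2 scale, 1.20 ± 0.06 on average. Over transcripts of the protein-coding class alone the ratio was 0.64 ± 0.17. The order was the reverse for the full-length coding transcripts alone. Apaf1-202 had 8.87 and 7.59 TPM, below Casp9-201 at 11.17 and 12.95 TPM.

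The TPM of Apaf1 was spread over 3 transcripts of very different length. Apaf1-202, of 6433 bases, encodes the full protein and held 72.1% and 68.0% of the expected counts but only 29.1% and 25.2% of TPM. Apaf1-205, of 1596 bases and 777 coding bases, held 34.9% and 36.4% of TPM. It contains the start codon but only 18.9% of the coding bases of Apaf1-202. Of its 1561 windows of 36 bases 374 are absent from Apaf1-202, but none was absent from all other listed Apaf1 transcripts. Apaf1-204, of 511 bases without coding sequence, held 34.3% and 31.4% of TPM on 80.1 and 65.9 counts. Only 34 of its 476 windows were absent from all other listed Apaf1 transcripts. Apaf1-208, whose coding sequence is 33 bases shorter than that of Apaf1-202, had 0 counts in both libraries, with posterior SDs of 12.4 and 9.09 counts. Only 75 of its 5116 windows are absent from Apaf1-202. Apaf1-201 has the same coding bases as Apaf1-202 and was also listed at 0 counts, with posterior SDs of 26.2 and 25.0 counts.

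Xiap (ENSMUSG00000025860, chrX:42059679-42109656, forward strand) encodes an inhibitor of apoptosis that binds caspase 9 and blocks it. It stood at 12.1 TPM in replicate 1 and 8.87 TPM in replicate 2, or 10.5 ± 2.30 TPM (SD, n = 2). Replicate 1 was higher by counts also, with a CPM ratio of 1.35 and an interval of 1.20 to 1.53. The difference therefore exceeded counting error between these libraries, and the range overlapped that of Dffb. The log2 ratio of Xiap over Casp9 was -0.10 in replicate 1 and -0.61 in replicate 2, with a mean of -0.35 ± 0.36 that is within its own SD of 0.

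Xiap had a large part of its TPM on a short transcript. Xiap-209, 591 bases long and annotated without a coding sequence, held 47.6% of TPM in replicate 1 and 28.1% in replicate 2, on only 51.4 and 20.3 counts of 651 and 437. It lacks the exon with the start codon and shares 30.4% of the coding bases of Xiap-204. Xiap-208, also without annotated coding sequence, held 4.69% and 18.9% of TPM on 4.23 and 11.4 counts. Most counts lay on Xiap-203 and Xiap-204, which hold the same 1491 coding bases. Xiap-204 held 45.4% and 65.2% of the counts and Xiap-203 39.1% and 26.3%. This division was uncertain, with posterior SDs of 51.0 and 39.2 counts for Xiap-204. For Xiap-203 they were 57.5 and 38.7 of 255 and 115 counts. Transcripts of the protein-coding class amounted to 5.61 and 4.60 TPM. On that basis Xiap lay below Casp9 by -1.27 ± 0.32 on the log2 scale and below Dffb in both libraries.

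**Figure D3:**
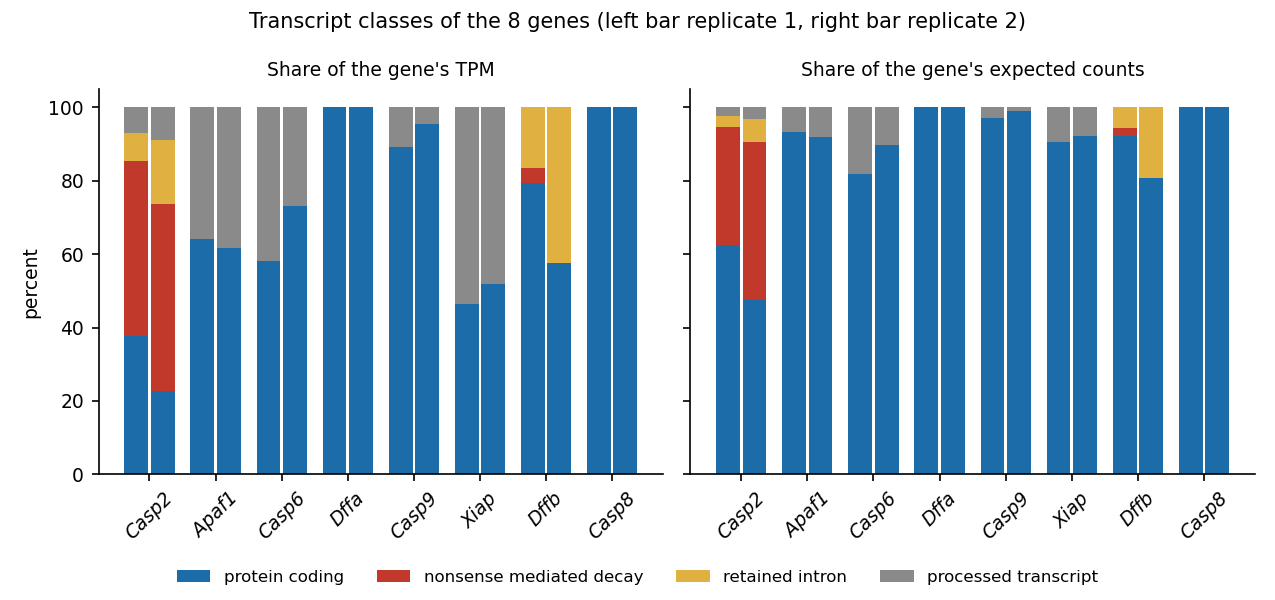
Percent of each gene's TPM (left panel) and of its expected counts (right panel) by transcript class, with replicate 1 and replicate 2 as neighbouring bars. For Xiap the share outside the protein-coding class falls from 53.7% and 48.1% of TPM to 9.32% and 7.86% of counts.

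Dffa (ENSMUSG00000028974, chr4:149104146-149120647, forward strand) encodes the inhibitor and folding chaperone of the caspase-activated DNase. Executioner caspases cut it and so free the nuclease. Dffa stood at 13.3 TPM in replicate 1 and 14.8 TPM in replicate 2, or 14.1 ± 1.04 TPM (SD, n = 2). Its range overlapped that of Casp9, though within each library Dffa was higher, at 13.3 and 14.8 against 12.95 and 13.55 TPM. This difference was not tested. All of its TPM lay on a pair of coding transcripts, which correspond to the long and short forms of the protein. The long form Dffa-201 held 77.6% and 69.4% of TPM and the short form Dffa-202 held 22.4% and 30.6%. Both libraries gave the long form the larger share.

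The transcripts part at the end of exon 5, where Dffa-202 reads on into the intron. The bases there show how the forms come to end differently. The last shared bases are in lower case and those of each transcript alone in capitals, up to the stop codon TAG in Dffa-202, 5′ to 3′ on the forward strand within chr4:149117894-149119123 and chr4:149117894-149117938:

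Dffa-201: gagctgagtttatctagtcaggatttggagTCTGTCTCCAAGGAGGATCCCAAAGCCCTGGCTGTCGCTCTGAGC

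Dffa-202: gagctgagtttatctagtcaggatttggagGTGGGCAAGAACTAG

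Dffa-201 encodes 331 residues and Dffa-202 265. Of the 1800 windows of 36 bases in Dffa-202, 947 are absent from Dffa-201, a larger part than the 96 of 1404 in Casp2-209 that are absent from Casp2-201. Dffa-202 had 86.3 and 119 counts.

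Dffb (ENSMUSG00000029027, chr4:153964449-153975126, reverse strand) encodes the caspase-activated DNase, which cuts chromatin between nucleosomes. It stood at 8.81 TPM in replicate 1 and 9.79 TPM in replicate 2, or 9.30 ± 0.693 TPM (SD, n = 2). Dffa exceeded Dffb by a log2 ratio of 0.60 in both libraries. The SD of this ratio, 0.000805, is far smaller than that of either level and came from only 2 values. The coding transcript Dffb-201 held 79.3% of TPM in replicate 1 and 57.7% in replicate 2. Dffb-203, which retains an intron, had 12.8 counts in replicate 1 and 40.2 in replicate 2, or 13.7% and 42.3% of TPM. Over transcripts of the protein-coding class the ratio of Dffa over Dffb was 0.93 and 1.39, 1.16 ± 0.32 on average, so the inhibitor was above the nuclease by either measure.

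In order of mean TPM the genes ran from Casp2 and Apaf1 through Casp6, Dffa, Casp9, Xiap and Dffb to Casp8. The ranges of the libraries overlapped between Casp2 and Apaf1, between Dffa and Casp9, and between Xiap and Dffb. Within each library Dffa was above Casp9, while the order of the other pairs changed between the libraries. Over transcripts of the protein-coding class the order was Apaf1 at 19.1 TPM, Dffa at 14.1, Casp6 at 13.8, Casp9 at 12.2, Casp2 at 9.06, Dffb at 6.32, Xiap at 5.105 and Casp8 at 0.770 TPM. By that measure Apaf1 stood first in both libraries and Casp8 last. The place of Apaf1 depended on the short Apaf1-205, at 10.65 and 10.97 TPM, since the full-length Apaf1-202 had 8.87 and 7.59 TPM. In 5 of the 8 genes, namely Casp2, Casp6, Apaf1, Xiap and Dffb, transcripts without annotated coding sequence held at least 10% of TPM in both libraries, and by expected counts this was so for 1, Casp6. All 5 were among the 7 detected genes, and of 8534 detected nuclear protein-coding genes 27.8% did so by TPM and 19.0% by expected counts. Reads of 36 bases fit most overlapping transcripts of a gene, so these divisions are the quantifier's estimates.

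In CPM the libraries stayed within 2-fold for each of the 7 genes whose mean reached 50 counts, while 1.05% of 9315 genes over this minimum were farther apart. Casp8, with fewer counts, also stayed within 2-fold. The exact intervals of Apaf1, Casp9 and Xiap lay to one side of 1, that is for 3 of these 7 genes, against 46.0% of the 9315, so this share was near the background. The interval of Casp8 also lay to one side of 1. Apaf1 and Xiap were higher in replicate 1, with ratios of 1.10 and 1.35, and Casp9 and Casp8 in replicate 2, with ratios of 0.885 and 0.540. In TPM the ratios of Apaf1 and Casp9 were 1.01 and 0.956. For Casp2, Apaf1, Casp6 and Dffb no read was shared with another gene, as the posterior SD of the gene's count was 0 in both libraries. Dffa had the largest, 4.23 and 4.75 counts.

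**Figure D4:**
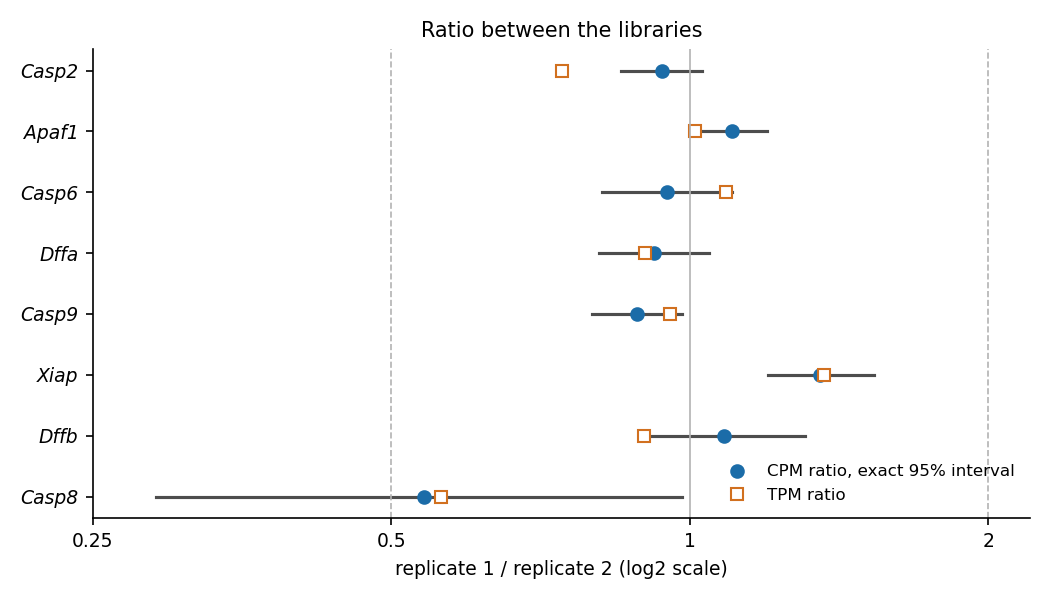
Ratio of replicate 1 to replicate 2 for each gene on a log2 axis, with filled points for CPM, lines for the exact 95% interval of counting error, and open squares for TPM; dashed lines mark 2-fold. All ratios lie within 2-fold, and the interval of Xiap, 1.20 to 1.53, lies farthest above 1.

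Casp1, Casp4, Casp12 and Casp14, the inflammatory caspases and the caspase of cornified skin, had 0 counts in both libraries. The same held for 8572 of 21461 nuclear protein-coding genes.

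Partners of the apoptosome covered a wide range. Of 6 genes for proteins released from mitochondria 5 were detected, against 41.2% of all nuclear protein-coding genes. Htra2, which encodes a protease that blocks inhibitors of apoptosis, was the highest at 168 ± 4.50 TPM (SD, n = 2), and Diablo, whose product displaces Xiap from caspases, stood at 31.3 ± 4.74 TPM. Aifm1, for a flavoprotein that can move to the nucleus, had 26.1 ± 1.68 TPM. The somatic cytochrome c gene Cycs stood at 6.58 ± 0.438 TPM, with posterior SDs of 12.9 and 10.9 counts of 342 and 256. Diablo exceeded Xiap in both libraries, at 27.9 and 34.6 against 12.1 and 8.87 TPM.

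Of 9 other genes with the BIR repeat, which Xiap also carries, 4 were detected, a share near the 41.2% of all nuclear protein-coding genes. Birc5, which encodes survivin, a protein of the mitotic spindle, reached 176 ± 6.80 TPM, and Birc6 44.7 ± 4.33 TPM. Birc2 and Birc3, for ubiquitin ligases of death receptor complexes, stood at 12.2 ± 0.276 and 9.75 ± 0.905 TPM, against 10.5 ± 2.30 TPM for Xiap. Naip2, Naip5 and Naip6 were below 1 TPM in both libraries, and Naip1 and Birc7 had 0 counts.

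Around caspase 8, 4 of 9 genes were detected, a share near the 41.2% of all nuclear protein-coding genes. The adaptor gene Fadd stood at 10.8 ± 0.926 TPM, Tradd at 12.4 ± 1.60 TPM, the kinase gene Ripk1 at 8.75 ± 0.339 TPM and Cflar, which encodes FLIP, a relative of caspase 8 without protease activity, at 16.0 ± 3.17 TPM. Cflar was above Casp8 in both libraries, at 13.7 and 18.2 against 0.550 and 0.980 TPM. The genes are neighbours on chromosome 1, 36489 bases apart. Of the receptor side, Fas, Fasl and Tnfrsf1a had 0 counts, and Tnfrsf10b, for a receptor of the ligand TRAIL, stood at 1.05 and 0.950 TPM.

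Both adaptor genes of the caspase 2 platform (2 of 2) were detected, Pidd1 at 16.0 ± 2.96 TPM and Cradd at 5.06 ± 0.212 TPM. Of 9 nuclear substrates and nucleases 8 were detected. The background for both lists was 41.2% of all nuclear protein-coding genes. The lamin gene Lmna, a target of caspase 6, reached 360 ± 13.5 TPM, Top2a 328 ± 17.0 TPM, Acin1, for a chromatin condensation factor that caspases cut, 215 ± 0.714 TPM and the lysosomal nuclease gene Dnase2a 179.8 ± 0.389 TPM. Dnase2a was above Dffb, at 180.1 and 179.5 against 8.81 and 9.79 TPM. Lmnb2 was not detected, with 3 and 0 counts.

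**Figure D5:**
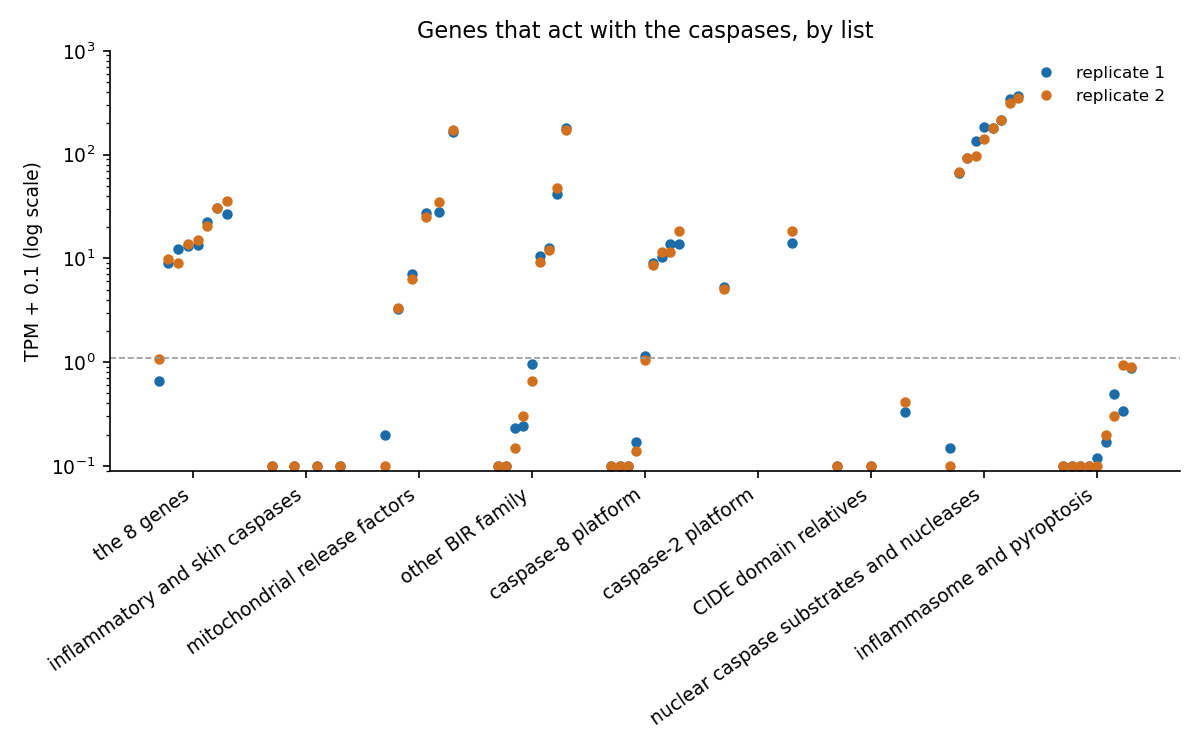
TPM plus 0.1 on a log scale for the 8 genes and for each list of related genes, with each gene as a pair of points, 1 per library, sorted by mean within its list; the dashed line marks 1 TPM and points on the lower edge had 0. The highest points are those of Lmna, at 360 TPM on average, and the inflammasome and CIDE lists lie below the line.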

How the data were processed

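Polyadenylated RNA of G1E-ER4 cells was measured in 2 libraries of 1 group. Per the deposited file manifests, alignments were to mm10 and quantifications used GENCODE M4, 1 library per file; the sources used here name no aligner or quantifier. The authors' tables hold an expected count and TPM, deposited per gene and per transcript, a posterior mean TPM with a prior count, and the percent of a gene's TPM on each transcript, as deposited. Symbols, classes, exons and sequences came from GENCODE M21 (GRCm38, the same assembly), in which 44 of 46 listed transcripts of the 8 genes have the deposited length. RefSeq proteins were not used here.

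CPM was computed from total expected counts, and ratios got exact Clopper-Pearson intervals (scipy 1.17.1). edgeR 4.0.16 gave TMM scaling as an alternative. Reads had no molecular identifiers, so intervals cover counting error only. With 1 group of 2 libraries no test was run: an exact sign-flip permutation test could not go below p = 0.5. The script that counts genes over 2-fold apart was checked on simulated counts. Strand use in counting is not stated in the sources used here.

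The members and gene lists were chosen with earlier results of these data known. Named were all 8 genes, transcripts with 10% of TPM in either library, up to 4 detected genes of each list with the highest level, and fixed direct partners. Other genes and transcripts, most of them at or near 0 counts, were named after their values were seen. Some genes that this rule names are not reported here.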

Additional observations from a re-analysis of the deposited data

How the results depend on the processing

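The number of detected genes was 7 at 5 TPM, with posterior mean TPM and with either library left out, and 8 at 0.5 TPM. The number over 2-fold apart was 0 with TMM scaling, with TPM and without the filter. No ratio changed sign under the alternatives run, which did not include full-length transcripts alone. By those, Apaf1-202 lay below Casp9-201 in both libraries, at 8.87 and 7.59 against 11.17 and 12.95 TPM. The log2 ratio of Dffa over Dffb was 0.60 with posterior mean TPM, 1.12 over transcripts with coding sequence, 1.16 over the protein-coding class, 1.08 from expected counts and 0.55 on log2(TPM + 1). For Apaf1 over Casp9 these were 1.10, 0.64, 0.64 and 0.66 for the first 4, for Xiap over Casp9 -1.27 over either set of transcripts, and for Casp8 over Casp9 -4.86 from expected counts and -3.02 on log2(TPM + 1). Values from expected counts and on log2(TPM + 1) differ by construction, since counts are not divided by length and a pseudocount of 1 shrinks ratios, most at low levels. For the other settings the cause was not tested. By expected counts 1 gene, in place of 5, had 10% on transcripts without coding sequence, and by posterior mean TPM 6. Rescaling TPM to nuclear protein-coding genes without the adult globins multiplied all levels by 1.45 and kept their order. Shares from expected counts or posterior mean TPM, and levels and ratios over the protein-coding class, were chosen after seeing the data. No paired contrast of conditions was possible because the libraries form 1 group. Ratios between genes were taken within each library. Casp8 is limited by depth, with 19.5 and 32.0 counts.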

Other observations

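The listed genes of the inflammatory branch of the caspase family and its substrates were below 1 TPM in these cells. None of 9 inflammasome and pyroptosis genes was detected, against 41.2% of all nuclear protein-coding genes. Their highest mean level was 0.785 ± 0.0212 TPM (SD, n = 2) for the adaptor gene Pycard, with 17.0 and 16.0 counts. Nlrp3, Nlrp1b, Gsdmd and Il18 had 0 counts in both libraries, and Il1b had 5 and 11 counts, or 0.24 and 0.83 TPM. Gsdme, which encodes a pore-forming protein of the same family as Gsdmd, had 26.0 counts in replicate 1 and 11 in replicate 2. The relatives of Dffa and Dffb by their shared CIDE domain were also below 1 TPM, with Cidea and Cidec at 0 counts and Cideb at 3.21 and 5.42 counts.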
